A study of Auxenochlorella pyrenoidosa with 18 samples.

Results

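In the predicted gene models of the green alga Auxenochlorella pyrenoidosa, 53 pairs of genes lay close together on a scaffold and carried the same series of coding exon lengths. These pairs joined 96 of the 10284 gene models. They were chosen by 2 properties of the models: within each gene the transcript with the most coding bases was read, and the genes of a pair lay at most 5 places apart in start order. They also shared a run of at least 4 consecutive internal coding segments with identical lengths in the same 5' to 3' order. A coding segment is the translated part of an exon, and an internal one is neither the first nor the last of its model. A model needs at least 6 coding segments to hold such a run, and 6779 models had them. Of all 43446 gene pairs at most 5 places apart, the 53 were 0.122%.

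The series sequenced RNA of whole cells of strain FACHB-9, from 0, 24 and 72 h of heterotrophic growth on glucose and urea and from cells labelled as phototrophic at 2, 8 and 24 h, after dilution and transfer to light. The labels place 18 libraries in these 6 groups, 3 to a group. No value of a single library was analysed here, so the depth of the libraries is unknown here and no group was compared with another. The values below come from the deposited gene models, which name AUGUSTUS, a gene prediction program, as their source and belong to no library. The models carry no gene names and no genome sequence was used here, so the pairs are called copies for their shared lengths alone, and their proteins were not compared.

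Genes that arise by duplication inherit the exons and introns of the gene they came from. Coding exons change length slowly, because an insertion or deletion that is not a whole number of codons breaks the reading frame, whereas an intron can often gain or lose bases with little effect on the protein. Old copies therefore often keep exon lengths and intron positions when their introns have drifted apart. Copies made by unequal crossing-over lie side by side on one strand, and copies made together with an inversion face each other.

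Runs were shared by a larger percentage of direct neighbours than of pairs at any greater distance. Direct neighbours made up 35 of the 53 pairs, which is 0.387% of all direct neighbours (95% Wilson interval 0.278 to 0.537%, 9053 pairs). At 2 places apart the rule was met by 7 pairs, or 0.0804% (0.0389 to 0.166%), and at 3 places by 6 pairs, or 0.0695% (0.0319 to 0.152%). At 4 and 5 places it was met by 2 and 3 pairs. Outside the limit of 5 places the same length rule was met by 7 pairs at 6 to 10 places (0.0169%), 2 of them at 6 places. It was met by 5 pairs at 11 to 50 places (0.00178%) and by 4 pairs farther apart on one scaffold (0.000457%). Among the 51633485 pairs of genes on different scaffolds it was met by 46 (8.91e-05%). These intervals count pairs as independent, which pairs that share a gene are not.

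**Figure D1:**
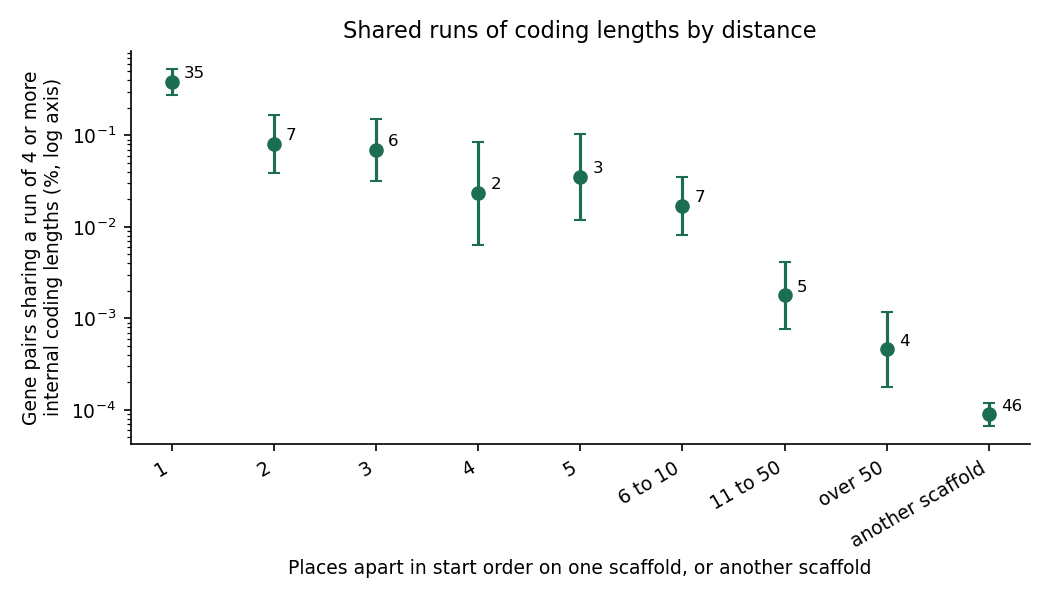
Percentage of gene pairs sharing a run of at least 4 internal coding lengths (log axis) by the number of places between the genes, with 95% Wilson intervals and the number of pairs beside each point. The share was 0.387% for direct neighbours and 8.91e-05% for genes on different scaffolds.

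Few pairs met the rule once the order of the lengths was broken. When the internal lengths were shuffled within every model, 100 shuffles gave at most 2 nearby pairs each, 29 in all, and 73 of them gave none. Reading one model of each pair from its 3' to its 5' end gave 0 pairs among the 21228 nearby pairs in which both models had at least 6 coding segments. Of the 53 pairs, 25 had a run of exactly 4, the shortest the rule allows, 14 a run of 5 and 5 a run of 6. The other pairs had runs of 7 (2 pairs), 8 (2 pairs), 11 (2 pairs), 12 (2 pairs) and 13 segments (1 pair). Just outside the limit, 39 nearby pairs had a longest run of 3, and their 78 introns inside the run differed by a median of 27.5 bases. Just inside it, the 25 pairs with a run of 4 had a median difference of 23 bases over 75 introns.

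Joined through shared genes, the pairs formed 45 clusters on 25 scaffolds. Clusters of 2 genes numbered 41, clusters of 3 genes 3, and 1 cluster held 5 genes. Scaffold00514 carried the most pairs, 7 among its 387 genes, and scaffold00711 the most for its size, 5 among 60 genes, all in the cluster of 5. Every member was a complete model with a start and a stop codon (96 of 96), against 91.1% of the 6779 models with at least 6 coding segments. Members had a median of 14 coding segments (quartiles 9 to 18), against 10 (7 to 14) over those 6779 models. A model with more segments offers more places for a run, so the rule itself favours long models.

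The reading frame at the start of the run was the same in both copies of all 53 pairs (100%, 95% Wilson interval 93.2 to 100%). Phase, the number of bases to skip before the next whole codon, was not used to choose the pairs. It is 1 value per pair, because the phases further along a run follow from the first one and the lengths. Segments of the same order in the 21175 other nearby pairs with at least 6 coding segments had the same phase in 37.6% of cases, and the squared phase shares of all 74992 internal segments sum to 37.5%. Runs began in phase 0 in 23 pairs, in phase 1 in 15 and in phase 2 in 15. With 1 pair per cluster, the one with the longest run, the phase was the same in 45 of 45. It was also the same in the 39 pairs with a run of 3, in all 16 pairs more than 5 places apart on one scaffold, and in 45 of 46 pairs on different scaffolds.

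Direct neighbours among the pairs lay mostly on one strand. Of the 35, 25 were on the same strand (71.4%, 95% Wilson interval 54.9 to 83.7%), 6 were divergent (start to start) and 4 convergent (end to end). Of all 9053 direct neighbours, 35.9% were on the same strand. At 2 to 5 places apart, 9 of 18 pairs were on one strand (50%, 29 to 71%), against 51% of all 34393 pairs at those distances. Over all distances the share was 64.2% for the 53 pairs (50.7 to 75.7%) and 47.8% for all nearby pairs. The share was 65.2% with a run of 3 or more and 60.7% with a run of 5 or more. Among the 14 pairs with a run of 6 or more it was lower, at 42.9% (21.4 to 67.4%). That interval overlaps the one of the 53 pairs, and 3 of these 14 are from 1 cluster.

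Copies were separated by 147 to 44335 bases, with a median of 1735 (quartiles 706 to 6945). The 25 direct neighbours on one strand had a median gap of 966 bases (quartiles 295 to 1657), against 895.5 (355 to 3246.8) for all 3248 neighbours on one strand. The 6 divergent neighbours were 755 to 5385 bases apart, and the median of all divergent neighbours was 465. The 4 convergent ones were 147 to 5285 bases apart, against a median of 266. In 18 pairs other models lay between the copies. These were 35 different models, 3 of them members themselves, and none of the other 32 shared more than 1 consecutive internal length with a copy of the pair it lay in. Some of the 32 had only 2 or 3 coding segments, and so at most 1 internal length to share.

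The longest runs belonged to a cluster of 3 genes on scaffold00230. Models g2180 (bases 556781 to 567935, plus strand, 30 coding segments) and g2182 (bases 578501 to 586845, plus strand, 17 segments) shared 13 internal lengths in a row. These measured 122, 56, 135, 91, 192, 128, 162, 190, 212, 70, 285, 66 and 51 bases. Model g2183 (bases 586993 to 591595, minus strand, 14 segments) carried the last 12 of them, which were all of its internal segments, and faced g2182 end to end across 147 bases. All 3 models ended their coding sequence with the segment after the run, of 136 bases in g2180, 115 in g2182 and 103 in g2183. Before the run they shared no length: 16 further segments preceded it in g2180 and 3 in g2182, while g2183 had a first segment of 17 bases in place of the 122.

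Single introns of these 3 copies differed in both directions. Over the 12 introns shared by g2180 and g2182 the sums were 2117 and 2108 bases, and single introns differed by 0 to 58 bases with a median of 8.5. Over the 11 shared by g2180 and g2183 the sums were 1950 and 1974 bases, with differences of 0 to 113 bases and a median of 9. The neighbours g2182 and g2183 had sums of 1937 and 1974 bases over 11 introns and a median difference of 28 bases. The intron between the segments of 192 and 128 bases measured 239 bases in g2180 and g2182 and 126 in g2183, and the one between 190 and 212 bases measured 239 bases in g2180 and g2183 and 255 in g2182. Which copies matched in intron length therefore changed along the run.

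The cluster of 5 genes lay on scaffold00711 within 68924 bases. Its core was a series of internal segments of 41, 76 and 54 bases in g5172 (bases 27417 to 31270, minus strand), g5177 (bases 75606 to 80250), g5178 (bases 82376 to 85833), g5179 (bases 87916 to 91090) and g5180 (bases 92106 to 96340), the last 4 on the plus strand. The segment before the core measured 214 bases in g5172, g5178, g5179 and g5180 and 217 in g5177. The segment after it measured 140 bases in g5172, g5177 and g5180 and 137 in g5178 and g5179. Both differences are 3 bases, the length of a codon, and they divided the 5 copies in different ways. At the 5' end g5172 and g5180 both began with segments of 109 and 49 bases and g5177 with 106 and 49, in the same phases. The segments that followed measured 362 bases in g5172 and 395 in g5180. The 5' ends of g5178 and g5179 held neither length, with first segments of 367 and 4 bases before the 214. The 3' ends differed in all 5: the coding sequence ended with 300 and 275 bases in g5172, 590 in g5177, 584 and 81 in g5178, 773 in g5179, and 71 and 534 in g5180. Intron lengths set g5178 closest to g5180, 2 places away, with a median difference of 1 base over 3 introns. The direct neighbours g5178 and g5179 differed by a median of 69 bases over 4 introns.

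On scaffold00629 a cluster of 3 genes differed in exon number at a point between shared lengths. Models g4780 (bases 1144177 to 1151261, plus strand), g4785 (bases 1176426 to 1186673, minus strand) and g4788 (bases 1211220 to 1216413, minus strand) shared segments of 24, 132 and 69 bases. Just before these, g4780 had 1 segment of 78 bases, where g4785 had 2, of 27 and 51 bases, whose sum is 78. The intron between them in g4785 was 303 bases long, and the segment before measured 102 bases in both models. Model g4788 also had 2 segments there, of 30 and 51 bases. Further on, g4780 and g4788 had a segment of 67 bases where g4785 had 133, and g4785 and g4788 had one of 42 bases where g4780 had 33. Intron lengths were among the least alike of all pairs. The run introns of g4785 summed to 1168 bases against 597 in g4788, a 1.96-fold difference and the largest of the 53 pairs.

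A second exact split was found in g9206 and g9207 on scaffold01211, minus-strand neighbours 1131 bases apart. Before their run of 72, 144, 172 and 140 bases, g9206 had a segment of 161 bases and g9207 had 2, of 86 and 75 bases, with an intron of 200 bases between them. The next segment was 111 bases in both. Exact splits next to a run thus occurred at 2 of 106 run ends (1.89%), both followed by a segment of identical length. In other nearby pairs, segments of the same order showed an exact split in 0.346% of 127352 comparisons, and 6 of these were followed by an identical length.

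Models g631 (bases 317074 to 321915, minus strand) and g635 (bases 328861 to 333715, plus strand) on scaffold00047 matched along their whole length but for 1 segment. All 15 coding lengths of g635 were present in order among the 16 of g631, from a first segment of 149 bases to a last of 239. Model g631 had 2 successive segments of 132 bases where g635 had 1. The extra length is a multiple of 3, so the frame is the same on both sides of it. The extra segment and the introns beside it, of 130 and 220 bases, span 482 bases in g631, and g635 had a single intron of 570 bases in the same place. Between these genes lay g632 (bases 322211 to 324115, plus strand), g633 and g634 (bases 326842 to 328545, minus strand). Both g632 and g634 had 5 coding segments of 45, 95, 291, 84 and 43 bases, with introns of 226, 281, 309 and 156 bases in g632 and 207, 276, 318 and 155 in g634. Their internal run of 3 is too short for the rule. They were picked out after their values were seen, as the only other nearby pair of at least 3 coding segments with every length identical. The 4 models mirrored each other about g633, with 295 bases between g631 and g632 and 315 bases between g634 and g635.

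Other long runs lay in g4778 and g4779, divergent neighbours on scaffold00629 with a run of 11, and in g6811 and g6812, plus-strand neighbours on scaffold00992 with a run of 8. The first pair ended with a last segment of 201 bases in both, and before the run differed by 3 bases in 1 segment (186 and 183 bases) and by 12 in the next (235 and 247 bases). Model g4779 had 4 segments more than g4778, all before the run. Models g6811 and g6812 had 42 and 45 coding segments, of which 22 were identical in order, and their coding sequences measured 7215 and 7719 bases.

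**Figure D2:**
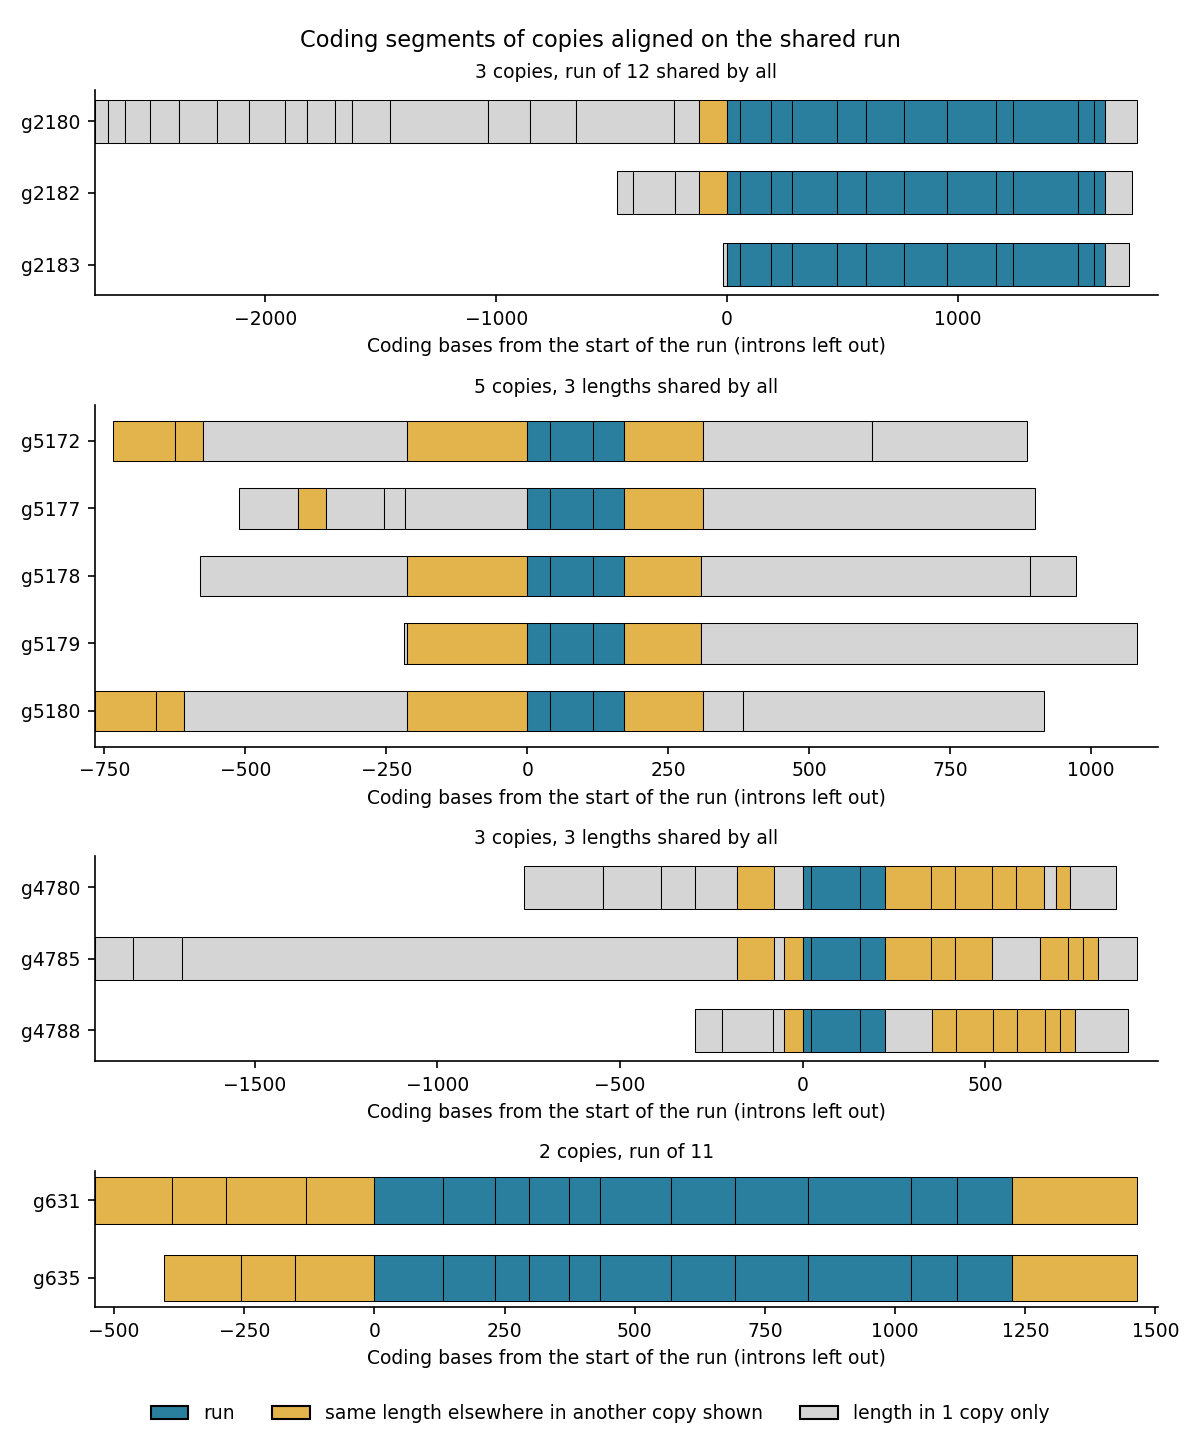
Coding segments of 4 clusters drawn end to end to scale, introns left out, with 0 at the start of the stretch that all models of the panel share (blue). Yellow marks a length that is found anywhere in another model of the same panel, and grey a length found in 1 model only. Every length in g631 is found in g635 and the reverse. However, 1 segment of 132 bases in g631 is extra and has no counterpart of its own in g635. Models g2180, g2182 and g2183 share only the 3' part.

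Outside the run, further lengths identical in order were found in most pairs. They occurred anywhere beyond the run, first and last segments included, in 38 of the 53 pairs, and 22 pairs had at least 3 of them. Counted only at the same number of segments from the run in both copies, a further identical length was found in 27 pairs. These counts were not made for other nearby pairs, and models with more segments offer more places for such matches. In all, the identical lengths in order made up a median of 60% of the segments of the copy with fewer (quartiles 50 to 75%), which includes the run that the rule required. Other nearby pairs had a median of 0 identical lengths in order (quartiles 0 to 1). Models g5295 and g5298 on scaffold00734 were the only pair of the 53 with every coding length identical, namely 21, 50, 158, 35, 68, 178 and 165 bases. Models g1112 and g1113 on scaffold00092, picked out after their values were seen, resumed their match after 1 unequal segment. Their run of 5 was followed by segments of 49 and 76 bases, and then by 106, 83, 82 and 92 bases in both.

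**Figure D3:**
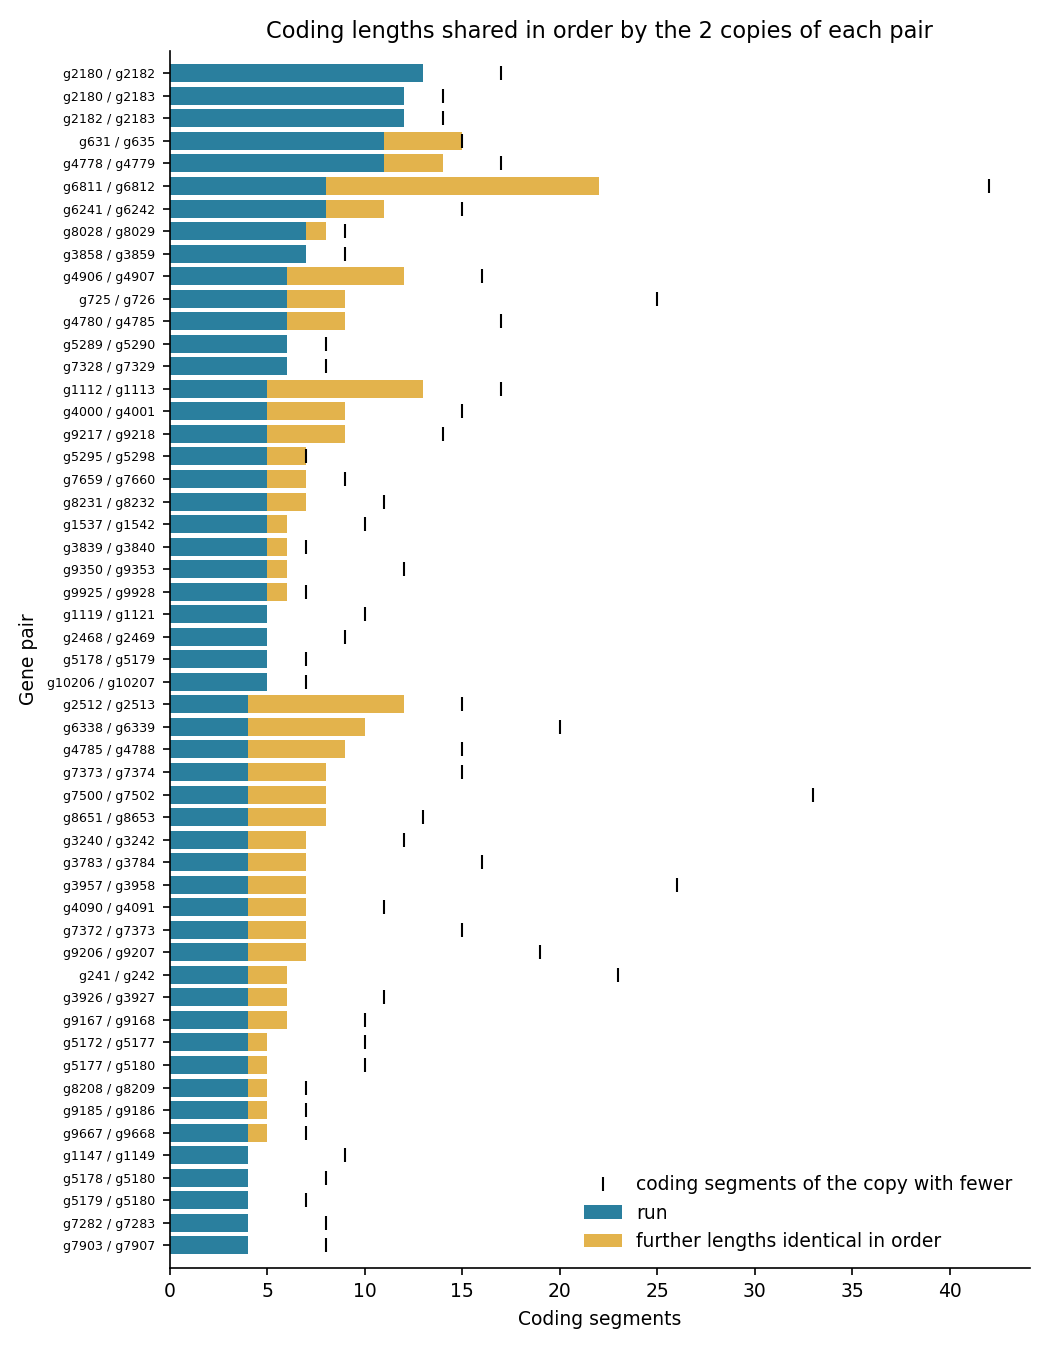
Coding segments identical in length and order in each of the 53 pairs, split into the run (blue) and further matches (yellow), with a tick at the number of coding segments of the copy with fewer. Besides runs of 4 to 13 segments, further matches in order, not always at the same distance from the run, were found in 38 pairs.

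Where an internal segment next to the run differed, the difference was usually a whole number of codons. Both neighbours were internal at 56 run ends, and 39 of these differed by a multiple of 3 bases (69.6%, 95% Wilson interval 56.7 to 80.1%), against 33.4% among unequal segments of the same order in other nearby pairs. In 17 of the 39 the difference was exactly 3 bases, and in 21 it was at most 15. The widest was 669 bases, between segments of 792 bases in g4090 and 123 bases in g4091, a pair named after its values were seen. Model g4091 had 4 successive segments of 123 bases where g4090 had 3, so these neighbours need not be counterparts. The same holds for 2 other ends among the 39, at the extra segment of g631 and the split in g4785 described above. There 132 bases in g631 were set against 153 in g635, and 78 in g4780 against 51 in g4785. The 17 other ends differed by 5 to 212 bases with a median of 55. The 56 ends are not all independent. The 217 bases of g5177, for example, are counted against the 214 of both g5172 and g5180. At the second position beyond the run, at the same offset in both copies, 12 of 45 internal segments had an identical length again (26.7%, 16 to 41%), against 0.64% of segments of the same order in other nearby pairs. Where the run was followed by the last segment of both models, 8 of 16 had identical last lengths, and where it was preceded by the first of both, 5 of 7 had identical first lengths. The remaining first and last segments of these kinds differed by multiples of 3, which the shared phase of complete models requires. Identical first and last lengths were not counted in other nearby pairs.

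Segment numbers matched in fewer pairs before the run than after it. The copies had the same number of segments before the run in 13 of 53 pairs and the same number after it in 25, with both in 5. The number differed on both sides in 20 pairs. The difference had a median of 2 segments before the run (quartiles 1 to 5, highest 29) and 1 after it (0 to 3, highest 23). The run reached the last internal segment of both copies in 16 pairs and the first internal segment of both in 7. Equal totals of coding segments were found in 7 pairs (13.2%, 95% Wilson interval 6.55 to 24.8%), against 7.57% of other nearby pairs. In 11 pairs the run took up every internal segment of one copy, and in 9 pairs one coding sequence was at least 2 times as long as the other. Coding lengths were not compared in this way in other nearby pairs, so whether 9 is many or few is not known here.

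Introns inside the runs seldom kept their length exactly. Of 236 introns between shared segments, 12 had the same length in both copies (5.08%, 95% Wilson interval 2.93 to 8.68%), in 11 pairs. The 3 overlapping pairs among g2180, g2182 and g2183 are among these 11. With 1 pair per cluster the share was 4.08% of 196 introns (2.08 to 7.85%). Introns of the same order in other nearby pairs were identical in 0.409% of 169702 comparisons. The median absolute difference was 23.5 bases for run introns (95% interval 15 to 30) and 69 bases in other nearby pairs, and 33.9% against 8.75% lay within 10 bases of each other. On the log2 scale the median absolute ratio was 0.17 for run introns and 0.49 for the others. Across the 236 introns the log2 lengths of the copies had a Pearson r of 0.434 and a Spearman rho of 0.426, against 0.0584 and 0.0857 in other nearby pairs. These correlations are descriptions, since introns of one pair share their genes. Summed over the run, the introns of the longer copy exceeded those of the shorter by a median of 1.12-fold (quartiles 1.02 to 1.26).

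**Figure D4:**
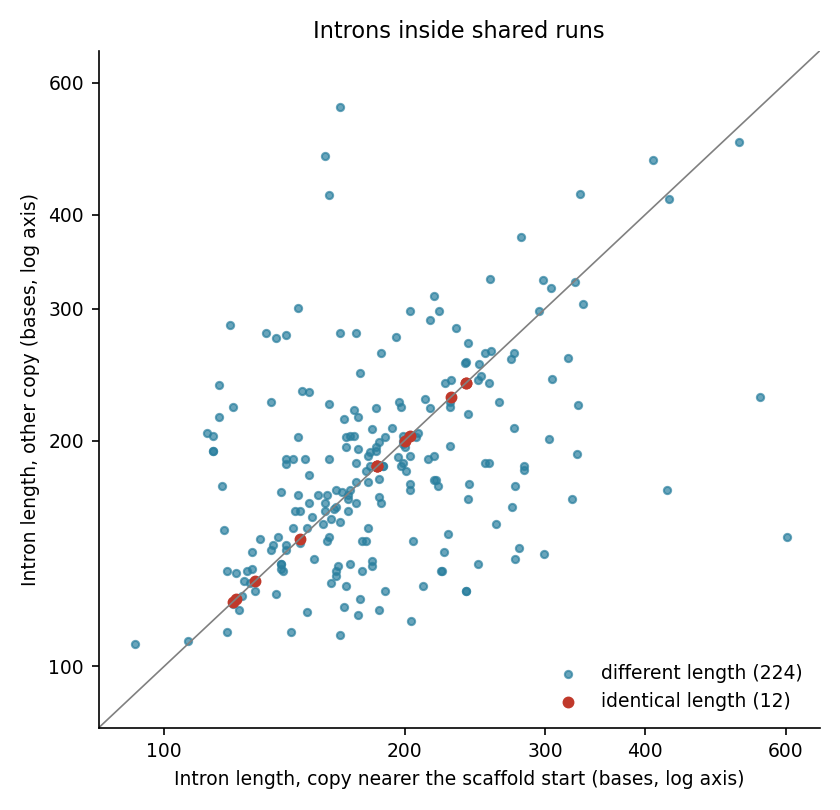
Length of each of the 236 introns inside a shared run in the copy nearer the scaffold start (x, bases, log axis) and in the other copy (y, bases, log axis), with the line of equality. The 12 introns of identical length are red, and the remaining points scatter on both sides of the line.

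The spread between pairs was wide. The median intron difference of a pair ranged from 1 to 254 bases, with 13 pairs at 10 bases or less and 12 at or above the 69 bases of other nearby pairs. Models g8028 and g8029 on scaffold01082 had the closest introns among runs of 5 or more. Their 6 run introns measured 295, 170, 128, 327, 229 and 181 bases in g8028 and 298, 169, 129, 326, 229 and 185 in g8029. Model g8028 nonetheless had 17 coding segments and g8029 had 9. Models g2468 and g2469 on scaffold00269 also had close introns, of 218, 185, 199 and 257 bases in g2468 and 191, 185, 203 and 263 in g2469. At the other end of the runs of 5 or more stood g10206 and g10207 on scaffold01332, whose 4 run introns measured 134, 329, 152 and 142 bases in g10206 and 278, 192, 232 and 277 in g10207. All 4 differed by at least 80 bases, although the 5 segments around them had identical lengths. Models g8231 and g8232, g1537 and g1542, g6241 and g6242, and g4906 and g4907 came next, with median absolute log2 ratios of 0.75, 0.64, 0.59 and 0.56 among runs of 5 or more. Pairs with a run of 4 reached higher ratios, up to 1.28 in g4785 and g4788.

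Introns were no closer in length between direct neighbours than between copies with other genes between them. Run introns of direct neighbours differed by a median of 31 bases (95% interval 22 to 41, n = 151), and those of pairs 2 to 5 places apart by 13 bases (8 to 22, n = 85). Taken as 1 value per pair, the medians were 30 bases over 35 direct neighbours and 12 bases over 18 pairs farther apart. This difference was not tested, and the 2 pairs that g2180 forms are among the 18. Run introns of copies on the same strand differed by a median of 23 bases, and those of copies on opposite strands by 26.

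By intron order, medians inside the run lay between 15 and 29 bases over all pairs, and the intron before the run differed by more. Run introns 1, 2 and 3 differed by medians of 22, 28 and 29 bases over the 53 pairs. The fourth differed by 27.5 bases over the 28 pairs that have one, and later ones by 15 bases (n = 49). Many of these later introns come from the 3 pairs among g2180, g2182 and g2183, in which each gene enters 2 pairs. In the 28 pairs with a run of 5 or more, run introns 1, 2 and 3 differed by 10, 37 and 30.5 bases, and the value for intron 2 lies above that of the intron after the run. The intron just before the run differed by a median of 64 bases (95% interval 44 to 112) and was identical in 0 of 53 pairs. The intron just after it differed by 33 bases (19 to 45) and was identical in 1 of 53, and its interval overlaps that of the run introns. By order in the gene, medians were 25 bases at orders 2 to 4, 25 at orders 5 to 9 and 18 at order 10 or later. These groups are rough, because 2 copies can hold a run intron at different orders, such as 24 in g6338 and 2 in g6339.

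**Figure D5:**
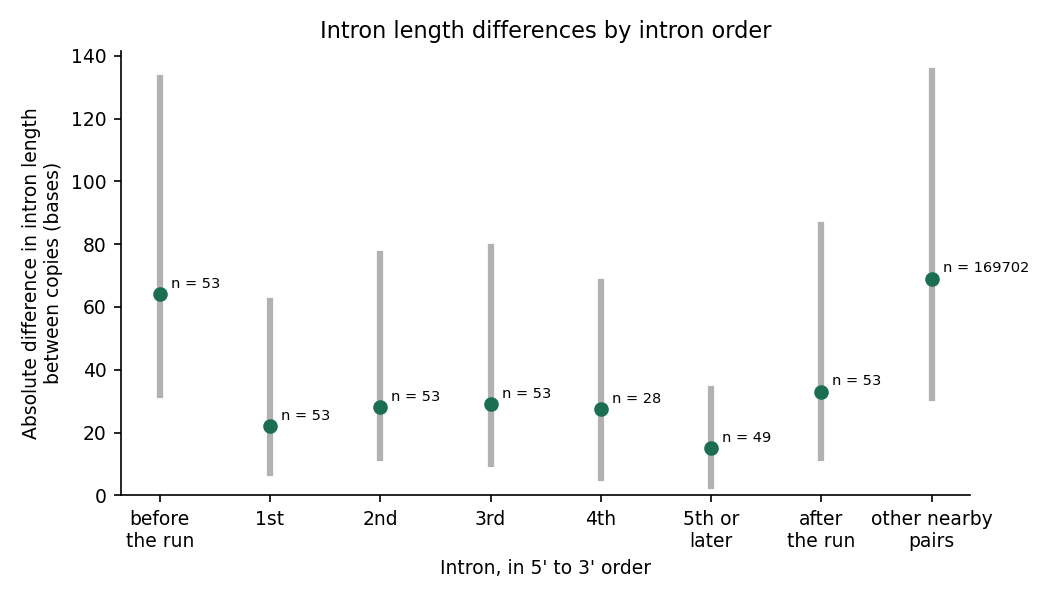
Absolute difference in intron length between copies (bases), as medians (points) and quartiles (bars), for the introns before, inside and after the run in 5' to 3' order, and for introns of the same order in other nearby pairs. Medians inside the run lay between 15 and 29 bases, against 64 before it, 33 after it and 69 in other nearby pairs.

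The deposited score was high in a larger share of the shared segments than of the rest of the same models. It was at least 0.95 for 90.3% of 517 internal segments inside runs (95% Wilson interval 87.5 to 92.6%), for 75.1% of 835 internal segments of the members outside them (72 to 77.9%) and for 82.9% of internal segments in all 6779 models. Scores ran up to 2, and what a value above 1 means is not described. Such values stood at 4 of the 517 segments, 21 of the 835 and 236 of all 68944, and without them the shares were 90.3%, 74.4% and 82.8%. Among the members, g3958 alone had a mean coding score above 1, at 1.94 over 27 coding segments. Most of the values above 1 in members therefore come from this 1 model. Segments in runs were also shorter, with a median of 91 bases (quartiles 64 to 132) against 107 (77 to 149) over those models. The part of this difference in score in the unequal lengths outside the runs was not tested.

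Some models held a run at 2 separate places of the same gene. There were 10 such models in the whole annotation, the phase was the same at both places in all 10, and 2 of them were members. Model g6338 on scaffold00902, with 49 coding segments, alternated segments of 55 and 26 bases over much of its 5' part. A segment of 81 bases, the sum of 55 and 26, stood once within the series. Its neighbour g6339 shared a run of 26, 25, 30 and 55 bases with it. Model g7374 on scaffold01012, with 39 segments, held the series 78, 104, 126, 89 and 91 bases from segment 3 and again from segment 25. Of that series 126, 89 and 91 bases recurred in the adjacent g7373, which shared runs of 4 with g7374 and, on its other side, with g7372 (40, 73, 73 and 80 bases). The longest repeat within a model was of 8 lengths, in g5141 (68 segments). Repeats of 7 followed in g5548 (19 segments) and in the member g6338, and repeats of 6 in g3830 and g9572. Of these 5 models, g6338 alone belonged to a pair.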

How the data were processed

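RNA sequencing was labelled for 18 libraries in 6 groups of 3, but the file used here is 1 set of gene models of the whole series. Its coordinates, strand and coding phase were read as the authors deposited them. The deposited models name AUGUSTUS as their source, and the score column was taken to be that program's. Its scale is not described, and 303 coding segments of the transcripts used have a score above 1, up to 2. The program's version and settings and the assembly were not given in the sources used here. TopHat 1.3.3 and Cufflinks are listed, with no role, in the submitters' processing notes.

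For every gene the transcript with the most coding bases was taken, the first listed in a tie. Coding lengths were ordered 5' to 3', and introns are the spaces between coding segments. Pairs at most 5 places apart by start were searched for runs of at least 4 identical consecutive internal lengths. Other nearby pairs are those at most 5 places apart with at least 6 coding segments in both models that do not meet the rule, compared segment by segment in the same order. Internal lengths were shuffled within models 100 times. The named pairs, clusters and models were the 6 longest runs, the 5 largest clusters, the 5 largest shares of identical introns and the 5 largest intron log2 ratios (runs of 5 or more). Exact splits and models with a run at 2 places, up to 5 of each, were also named. The members and lists were chosen with earlier results of these data known. In all, 11 alternatives were planned and 1 was added. Intervals of shares are 95% Wilson intervals, and those of medians are from order statistics. They cover counting error only, and pairs that share a gene and introns of one pair are not independent. No test was run. Python 3.11.15, NumPy 2.4.6, SciPy 1.17.1 and matplotlib 3.10.9 were used, and the search was tested on simulated data.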

Additional observations from a re-analysis of the deposited data

How the results depend on the processing

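Of 96 values under 12 alternatives, 81 moved by less than the set margins or not at all, and 15 moved by more. Many of the 81 had little or no room to move. Asking for a start and a stop codon, which every member had, returned the main values unchanged. So did the use of the first listed transcript. With 1 pair per cluster the number of clusters is 45 by construction. The margins for counts were wide. Lengths allowed to differ by up to 3 bases gave 75 pairs, 132 genes and 62 clusters, against 53, 96 and 45. These 3 counts are among the 81 values within the margins. The counts followed the threshold. A run of 3 or more gave 92 pairs, 163 genes and 77 clusters, a run of 5 or more 28 pairs, 53 genes and 26 clusters, and a run of 6 or more 14 pairs, 25 genes and 12 clusters. With a run of 6 or more the same-strand share was 42.9%. Direct neighbours alone gave 35 pairs and a median intron difference of 31 bases. Restricting the search to models whose coding score averaged 0.95 or more gave 20 pairs, 38 genes and 18 clusters, with scores above 1 kept as deposited. The causes were not tested. Phase agreement stayed between 97.3 and 100%, and identical introns between 3.76 and 6.67%. The use of 1 pair per cluster was chosen after seeing the data. No paired analysis was possible because no column of the models belongs to a library. All values rest on predicted models, and lengths that match do not show that sequences do.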
